A study of Drosophila melanogaster with 2 samples.

Results

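The 34 genes described here are the protein-coding genes of the Ensembl fly annotation (assembly BDGP6.54) whose symbols follow the naming of spliceosome proteins: the Sm and LSm genes, the Prp genes, Sf3a and Sf3b subunits, U2af38, U2af50, the snRNP-U1 genes, SF1 and SF2. The choice went by symbol alone, out of 13968 protein-coding genes placed on an arm, and used no binding value. The binding data are peaks of the protein encoded by CG3032 in whole Drosophila melanogaster. The single group was a transgenic line that stably expresses CG3032 with GFP fused to its C-terminus, collected as prepupae aged 24 hours with males and females pooled. Chromatin from 2 biological replicates of this line, numbered 2 and 3, was immunoprecipitated through the GFP tag, and the recovered DNA was sequenced (ChIP-seq). There was no wild-type or untagged group, and the promoter that drives the fusion is not given in the sources used here.

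The spliceosome removes introns from pre-mRNA. It is built from small nuclear ribonucleoproteins (snRNPs), in which a small nuclear RNA is wrapped by a ring of Sm or LSm proteins and joined by proteins specific to that particle. The U1 snRNP recognises the start of the intron, SF1, U2AF and the U2 snRNP recognise its branch point and end, and the tri-snRNP of U4, U6 and U5 brings in the catalytic RNAs. Most cells need these proteins all the time, and their genes are typical housekeeping genes.

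CG3032 peaks were present at the promoters of 15 of the 34 spliceosome genes. A gene counted as bound where a peak summit lay within 500 bp of one of its transcription start sites (TSSs). In the IDR list, which holds the 8170 peaks that the authors kept after an irreproducible discovery rate threshold, 15 of the 34 genes had such a summit (44.1%), against 26.9% of all protein-coding genes. In the joint list, called on both replicates together and holding 30000 peaks, 25 had one (73.5%), against 49.1% of all genes. The list of replicate 2 gave 26 genes (76.5%) against 48.5% of all genes, and that of replicate 3 gave 27 (79.4%) against 50.2%. Among as many of the strongest peaks of each replicate as the IDR list holds, 18 genes had a promoter summit in replicate 2 (52.9%, all genes 27.7%) and 17 in replicate 3 (all genes 26.6%). The share of spliceosome genes was above that of all genes in each of these 6 lists. The lists are not separate observations. The joint and IDR lists come from the same 2 replicates, and each list of strongest peaks is part of its replicate list. With 1 group and 2 replicates no test between conditions exists, and these counts are given as descriptions.

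The count depended little on the width of the promoter and more on how a summit between 2 genes is assigned and on the signal threshold. Within 200 bp of a TSS, 14 genes had an IDR summit (41.2%, all genes 19.5%), and within 1000 bp 16 had one (47.1%, all genes 30.6%). With each summit assigned to 1 gene, the one whose start was closest, the count was 9 of the 34 (26.5%, all genes 20.2%). In the stronger 4085 IDR peaks there were also 9 (26.5%, all genes 14.8%).

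Most summits lay a short way upstream of the genes, in A+T-rich DNA between neighbouring genes. Of the 15 IDR summits, 12 lay in intergenic DNA, and the median A+T content of the 201 bp around the summit was 70.1% (range 48.8 to 77.1), against 66.2% over all 2696 distinct summits that were the strongest of a gene. The following stretches, on the strand of the gene and from dm6, show the DNA at the summits of 6 genes, with the summit at the middle base. The genes are an SR protein gene, a U1 gene, 3 U2 genes and a gene of the catalytic steps, and they were picked to show summits with and without known motifs, among those clear of annotated exons. Capitals mark TATCGATA (the DRE, bound by Dref and BEAF-32), the BEAF-32 word CGATA contained in it, and the TATA word TATAAA, on either strand. Words were marked by their letters alone, whatever their distance from a start, so a TATA word need not be a working TATA box. The letters are those of the RefSeq copy of the assembly. The sequence of SF2 (chr3R:16342061-16342261, minus strand) holds a DRE on the side of the gene, and a CGATA word and a TATA word on the other side. That of snRNP-U1-C (chr3R:18983673-18983873, minus strand) holds a DRE on the side of the gene and several TATA words. That of Sf3b1 (chr2L:568127-568327, plus strand) holds several CGATA words and a TATA word but no DRE. That of Sf3b6 (chr3L:6193261-6193461, minus strand) holds none of these words. The shorter stretches of Prp18 (chr3R:19031321-19031381, minus strand) and Sf3a2 (chr3L:12814055-12814115, minus strand) hold none either, though the 201 bp around the Sf3a2 summit hold a CGATA word.
SF2: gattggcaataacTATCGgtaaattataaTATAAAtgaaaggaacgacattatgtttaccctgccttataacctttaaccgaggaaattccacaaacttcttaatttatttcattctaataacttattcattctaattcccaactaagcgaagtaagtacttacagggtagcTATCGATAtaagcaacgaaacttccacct
snRNP-U1-C: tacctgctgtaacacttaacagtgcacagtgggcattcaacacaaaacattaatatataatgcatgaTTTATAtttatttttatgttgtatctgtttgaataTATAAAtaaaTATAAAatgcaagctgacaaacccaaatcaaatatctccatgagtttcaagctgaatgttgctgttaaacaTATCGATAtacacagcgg
Sf3b1: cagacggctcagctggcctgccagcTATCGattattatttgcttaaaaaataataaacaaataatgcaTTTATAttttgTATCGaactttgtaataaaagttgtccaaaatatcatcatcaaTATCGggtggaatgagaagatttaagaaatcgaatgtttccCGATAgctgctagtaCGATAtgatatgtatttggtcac
Sf3b6: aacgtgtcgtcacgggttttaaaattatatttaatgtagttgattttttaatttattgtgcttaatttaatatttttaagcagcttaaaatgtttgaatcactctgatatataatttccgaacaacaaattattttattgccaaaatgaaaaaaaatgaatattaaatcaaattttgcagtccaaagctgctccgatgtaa
Prp18: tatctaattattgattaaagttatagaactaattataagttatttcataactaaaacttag
Sf3a2: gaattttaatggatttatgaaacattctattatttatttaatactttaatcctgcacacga

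Strong summits were spread over the parts of the machinery. The signal of a peak is the authors' value on a scale that the sources do not define, so it is compared within 1 list only, and the replicates are set side by side by rank among their 30000 peaks. U2af50 (FBgn0005411, chrX:16356696-16359039, minus strand) encodes the large subunit of U2AF, which binds the pyrimidine tract before the intron's end, and it had the strongest promoter summit of the 34 genes. Its IDR signal of 1266 at chrX:16359178 ranked 557 of 8170. This was 3.77 times the median of 336 over the 3763 genes with an IDR promoter summit, and above that of 90.1% of them. The summit was matched in both replicates, with a signal of 439 and rank 527 in replicate 2 and a signal of 831 and rank 585 in replicate 3. Sf3b6 (FBgn0035692), a small subunit of the U2 snRNP's SF3b complex that contacts the branch point, came next at chr3L:6193361 with an IDR signal of 798. The matched summits had 330 (rank 908) in replicate 2 and 473 (rank 1508) in replicate 3. SF2 (FBgn0283477), an SR protein that binds exonic enhancers, had an IDR signal of 576 at chr3R:16342161, with 239 (rank 1484) in replicate 2 and 337 (rank 2338) in replicate 3. Prp18 (FBgn0027784), which in yeast acts in the second catalytic step, had 545 at chr3R:19031351, with 239 (rank 1480) in replicate 2 and 307 (rank 2623) in replicate 3. These 4 genes ranked highest of the 34 in either replicate. Across the 15 bound genes the median IDR signal was 383, against 336 for all bound genes, and 9 of the 15 lay above 336.

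**Figure D1:**
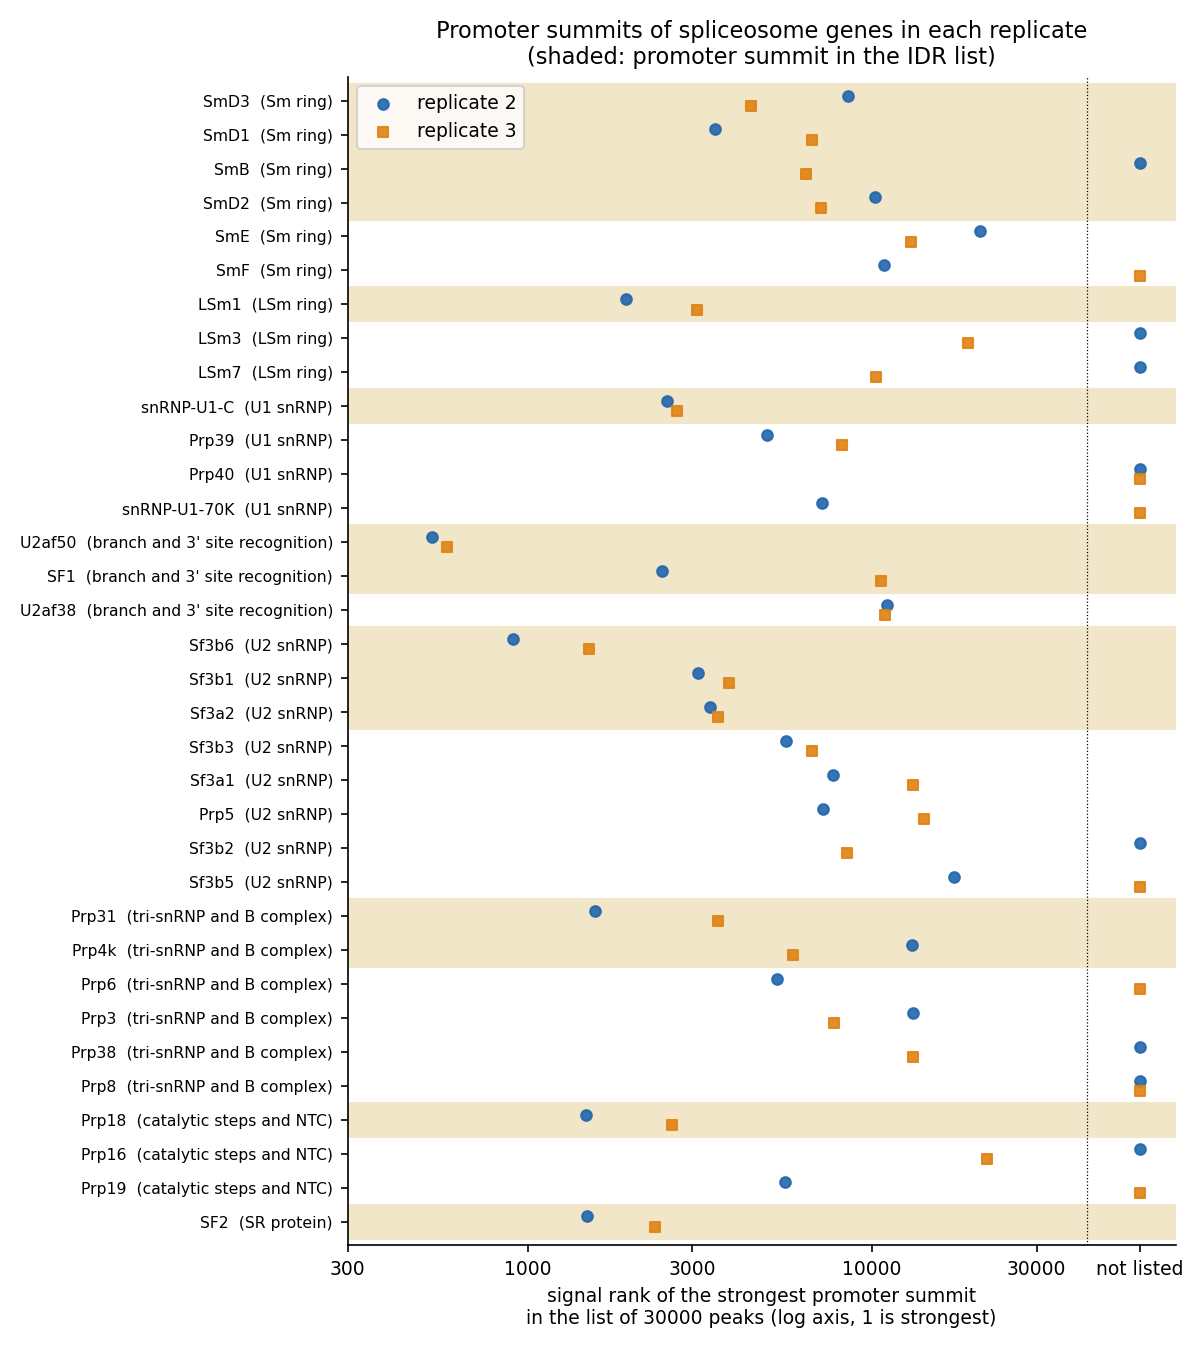
Rank by signal of the strongest promoter summit of each of the 34 spliceosome genes in the replicate lists (log axis, 1 is the strongest of 30000 peaks; circles are replicate 2 and squares replicate 3), grouped by part of the machinery. Shading marks the 15 genes with an IDR promoter summit, led by U2af50 with ranks 527 and 585, and points at the right edge are genes with no promoter summit in that replicate.

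The Sm genes encode the ring that forms around most spliceosomal RNAs, and 4 of 6 had an IDR promoter summit, each below the median signal of bound genes. Over all protein-coding genes the share was 26.9%. This share stands beside the counts of the other parts below too, and each part holds few genes. SmD3 had an IDR signal of 236 at chr2R:12168624, with 49.8 (rank 8505) in replicate 2 and 191 (rank 4457) in replicate 3. SmD1 had an IDR signal of 229 at chr3L:12734814, with 120 (rank 3495) in replicate 2 and 54.4 (rank 14545) in replicate 3 at the matching summit. Replicate 3 had a stronger summit of 129 (rank 6697) nearer to the SmD1 start, at −76 bp. SmB had an IDR signal of 173 at chr2L:10426653, with 135 (rank 6404) in replicate 3 and no promoter summit in replicate 2. SmD2 had 172 at chr3R:6346035, with 41.1 (rank 10205) in replicate 2 and 122 (rank 7085) in replicate 3. SmB exceeded 11.2% and SmD2 10.6% of bound genes in signal. SmD1 ranked higher in replicate 2, and SmD3 and SmD2 ranked higher in replicate 3. SmE reached the joint list but not the IDR list, with 68.4, and had 23.3 (rank 20596) in replicate 2 and 62.9 (rank 12993) in replicate 3. SmF had a summit only in replicate 2, with 38.7 at −24 bp.

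Of the 3 LSm genes, whose proteins form related rings, LSm1 had the one IDR summit. LSm1 belongs to the ring that acts in mRNA decay in the cytoplasm and not to that of the spliceosome. Its IDR signal was 456 at chr2R:21170835, with 197 (rank 1931) in replicate 2 and 266 (rank 3109) in replicate 3. LSm3, a subunit of both rings, had 58.7 in the joint list and a summit in replicate 3 only (38.3, rank 18926), and LSm7 had a summit only in replicate 3, with 82.7 at rank 10254. Without LSm1 the count was 14 of 33 genes.

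Among the 4 genes of the U1 snRNP and the factors that join it, snRNP-U1-C had an IDR summit. Its product steadies the pairing of U1 with the start of the intron. The summit at chr3R:18983773 had an IDR signal of 457, with 157 (rank 2536) in replicate 2 and 299 (rank 2711) in replicate 3. Prp39, known in yeast as a U1 protein, had 113 in the joint list, with 87.1 (rank 4942) at −386 bp in replicate 2 and 106 (rank 8162) at −39 bp in replicate 3. Its strongest summits in the replicates thus lay at different places. snRNP-U1-70K, which binds the U1 RNA itself, had a summit only in replicate 2, with 59.6 at −98 bp. Prp40, which in yeast bridges U1 to the branch point, had no promoter summit in any list, and the nearest summit of the joint list lay 7220 bp from its start.

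The 3 factors that first read the end of the intron were all in the joint list, and 2 of them in the IDR list. Besides U2af50 this was SF1, which binds the branch point. SF1 had an IDR signal of 239 at chr3R:17540267. Its matched summits had 161 (rank 2460) in replicate 2 and 79.7 (rank 10609) in replicate 3, the widest gap in rank among matched summits beside SmD1. U2af38, the small subunit of U2AF that reads the last bases of the intron, had 107 in the joint list at −345 bp. Its strongest summit ranked 11052 in replicate 2, at −85 bp, and 10906 in replicate 3, at −444 bp. These were thus different places. The partners U2af50 and U2af38, which form 1 dimer, stood far apart in rank in both replicates.

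The U2 group held 8 genes, of which 3 had an IDR summit, 3 reached only the joint list and 2 reached neither. Sf3b1, the largest SF3b subunit, had an IDR signal of 383 at chr2L:568227, with 133 (rank 3122) in replicate 2 and 219 (rank 3845) in replicate 3. Sf3a2 had an IDR signal of 359 at chr3L:12814085, with 123 (rank 3393) in replicate 2 and 236 (rank 3561) in replicate 3. Both repeated closely between replicates. Sf3b3 had 129 in the joint list, with 76.6 (rank 5626) at −279 bp in replicate 2 and 129 (rank 6685) at 50 bp in replicate 3. Like Prp39 it was among the strongest peaks of either replicate, at different places, and not in the IDR list. In the joint list Sf3a1 had 119 and Prp5, an ATPase that helps U2 to join the branch point, had 115. Sf3b2 had a summit only in replicate 3, with 103 at rank 8423, and Sf3b5 only in replicate 2, with 26.5 at rank 17237.

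In the tri-snRNP and the complex it forms, 2 of 6 genes had an IDR summit. Prp31, a protein of the tri-snRNP, had an IDR signal of 476 at chr3L:15158911, with 230 (rank 1569) in replicate 2 and 235 (rank 3565) in replicate 3. Prp4k, a kinase of the tri-snRNP, had 191 at chr3L:211389, with 32.9 (rank 13019) in replicate 2 and 147 (rank 5899) in replicate 3. Its summit was the only one of the 15 downstream of the start, at 68 bp, in the gene's own 5′ untranslated region. Prp6, which joins U5 to U4 and U6, had 135 in the joint list and 81.6 (rank 5293) in replicate 2, with no promoter summit in replicate 3. Prp3, a U4 and U6 protein, had 111 in the joint list, with 32.7 (rank 13115) in replicate 2 and 111 (rank 7766) in replicate 3. Prp38, needed in yeast for activation, had 86.1 in the joint list and a summit in replicate 3 only (62.2, rank 13127). Prp8, the scaffold at the catalytic centre, had no promoter summit in any list, and the nearest summit of the joint list lay 5626 bp from its start.

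Besides Prp18, the genes of the catalytic steps were not bound at their promoters in the IDR list. Prp19, a ubiquitin ligase at the core of the complex that bears its name, had a summit only in replicate 2, with 77.0 (rank 5598) at −93 bp. Prp16, a helicase of the second step in yeast, had a promoter summit only in replicate 3, with 31.9 (rank 21584) at −60 bp. Outside its promoter window, Prp16 carried 6 IDR summits, all in introns of this gene of 23371 bp. The strongest, at chrX:14218185 and 5770 bp from the nearest Prp16 start, had a signal of 2040 and ranked 178 of 8170, above the promoter summit of any of the 34 genes. The other 5 had signals from 210 to 569, and one of them, at chrX:14211674, lay within 500 bp of a start of l(1)G0469. Of the other genes of the 34, SF2 alone had an IDR summit inside the gene and more than 500 bp from its starts, at chr3R:16340848 in a coding exon, with a signal of 168.

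Across the replicate lists, 21 genes had a promoter summit in both replicates (61.8%, all genes 39.6%), 5 in replicate 2 only (14.7%, all genes 8.86%) and 6 in replicate 3 only (17.6%, all genes 10.6%). These counts ask for a summit within 500 bp of a start, not for the same position. Outside the IDR list, the strongest summits of the 2 replicates lay over 100 bp apart at Prp39, Sf3b3, U2af38, Prp3, SmE and Prp5. At Sf3a1 they lay closer. Prp8 and Prp40 had a promoter summit in none of the 4 lists (5.88%), against 40.2% of all genes. The 10 genes in the joint list but not in the IDR list had signals from 58.7 to 135, below the 151 of the weakest IDR peak. The IDR list was identical to the strongest 8170 peaks of the joint list, so membership in it is a threshold on the joint signal. The 9 genes outside both lists had their nearest IDR summit 741 to 15162 bp from a start. Of the 15 IDR summits, 14 had a summit of both replicates within 100 bp (93.3%), against 88.0% of all 3068 IDR promoter summits. The exception was SmB. The IDR list was made from the other lists, so this match is partly built in.

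Most summits sat between the starts of gene pairs that are transcribed away from each other. Of the 15 bound genes, 14 shared their summit with the start of another protein-coding gene within 500 bp (93.3%), and in all 14 the other gene ran in the opposite direction. Over all 3763 bound genes 56.2% shared their strongest summit with another coding gene. Sf3b6 shared its summit with Tnpo, a nuclear import receptor, 182 bp upstream of the Sf3b6 start and 119 bp upstream of that of Tnpo. SF2 shared with pad (173 and 157 bp upstream of the 2 starts), Sf3b1 with Nle, a ribosome assembly gene (113 and 106 bp), LSm1 with the TFIIH helicase gene Xpd (163 and 166 bp) and SmD3 with Oda, the ornithine decarboxylase antizyme gene (107 and 136 bp). The distances to the 2 starts differed by at most 63 bp in these 5 pairs. The SmD3 summit also lay in an annotated intron of Oda, so it was between the starts only when the nearest Oda start was used. The summit lay nearer to the spliceosome gene in Prp18 and CG6013 (80 and 152 bp), Sf3a2 and CG42588 (66 and 169 bp), snRNP-U1-C and gukh (123 and 252 bp), SF1 and the gene FBgn0010926 (154 and 304 bp), Prp31 and the mismatch repair gene Msh6 (189 and 349 bp), and SmB and KdelR (26 and 234 bp). It lay nearer to the neighbour in SmD1 and the phosphatase gene Ptp69D (203 and 131 bp) and in SmD2 and CG18048 (124 and 76 bp). The SmD2 distances differed by 48 bp, and the neighbour was also the nearer one at Sf3b6, SF2 and Sf3b1. At U2af50 the summit lay past the neighbour's start, 35 bp inside PIG-Q and within its 5′ untranslated region. In 6 of the 14 pairs the neighbour's start was the nearer one, which gives the count of 9 genes when each summit went to the nearest gene. Peaks do not show which gene of a pair, if either, responds to CG3032.

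**Figure D2:**
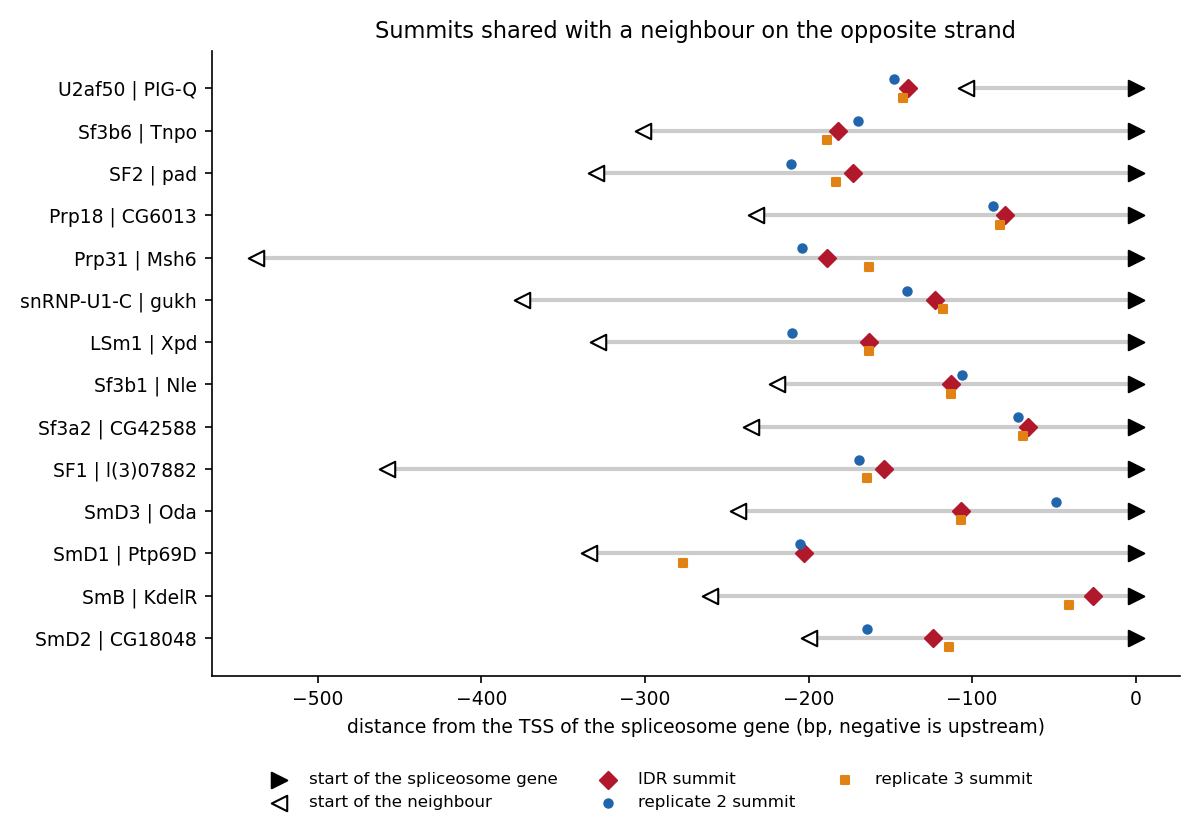
Position of the summits at the 14 spliceosome genes that shared an IDR summit with a neighbour on the opposite strand, in bp from the TSS of the spliceosome gene, ordered by IDR signal with the strongest on top. Filled triangles are the spliceosome gene starts, open triangles the neighbour starts, diamonds the IDR summits, and circles and squares the matched summits of replicates 2 and 3. All IDR summits but that of U2af50 lie between the starts shown, and SmB has no replicate 2 summit. The neighbour start shown is the one nearest to the summit, and the SmD3 summit also lies in an annotated intron of Oda.

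Measured from the spliceosome gene alone, 14 of the 15 summits were upstream, and the median position was −124 bp. The median over all bound genes was −138 bp, with 86.2% upstream. The 250 bp before the start held 93.3% of the spliceosome summits, against 67.6% over all bound genes. The farthest summit inside the 500 bp limit was that of SmD1 at −203 bp. The nearest IDR summits outside it were those of Prp16 at −741 bp (signal 221) and Sf3b5 at 1057 bp (signal 328), so no gene lay near the limit in the IDR list. In the joint list, Prp16 had a summit just outside, at −539 bp with a signal of 126. Over the strongest peaks of each replicate the median position was −170 bp in replicate 2 (18 genes) and −107 bp in replicate 3 (17 genes). Over all genes these medians were −148 and −127 bp.

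**Figure D3:**
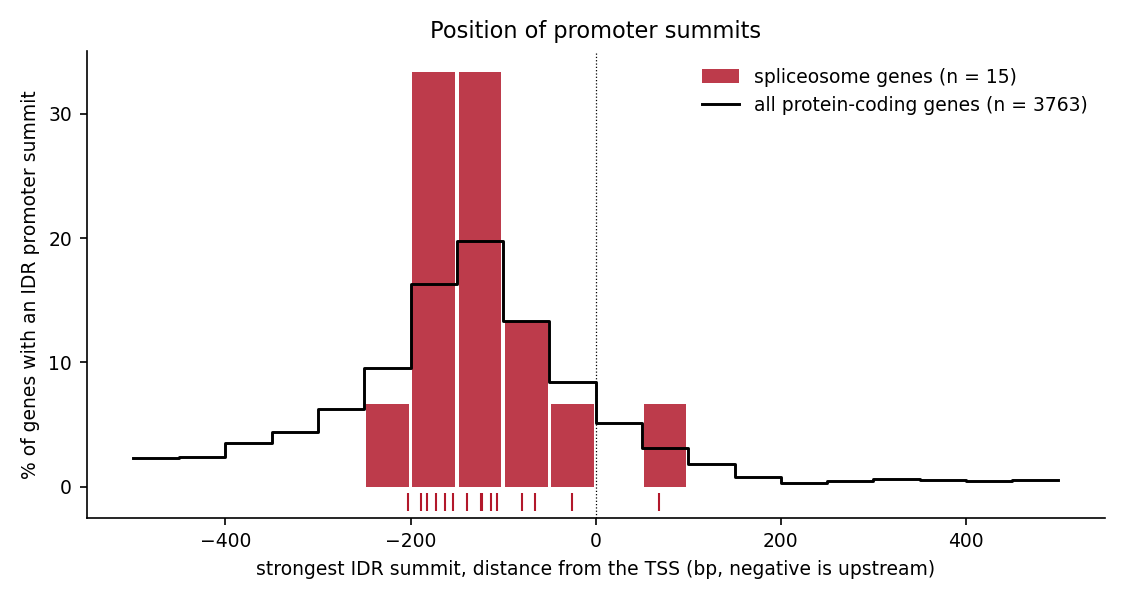
Distance of the strongest IDR summit from the TSS (bp, negative values upstream) in bins of 50 bp, as a percentage of the genes with an IDR promoter summit; bars are the 15 spliceosome genes, ticks below them their single values, and the black line all 3763 genes. The spliceosome summits lie between −203 and 68 bp, with a median of −124 bp.

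This arrangement was common among spliceosome genes whether bound or not. A start of another coding gene on the opposite strand, at most 500 bp upstream of the outermost TSS, was annotated at 23 of the 34 (67.6%), against 26.4% of all genes. Of these 23, 13 had an IDR promoter summit (56.5%), against 50.5% of all 3687 genes with such a neighbour. Of the other 11 spliceosome genes 2 had one, Prp31 and Prp4k (18.2%), against 18.5% of the 10281 genes without such a neighbour. Prp31 fell among these 11 only through the limit of 500 bp, as Msh6 on the opposite strand started 538 bp away. In the IDR list the share of spliceosome genes was thus near that of all genes within each arrangement. In the joint list this held for the genes with a neighbour (78.3%, all genes 75.2%) but not for those without (63.6%, all genes 39.8%). In the strongest peaks of the replicates this held for the genes with a neighbour, at 52.2% against 52.4% of all genes in replicate 2 and 56.5% against 49.2% in replicate 3. It did not hold for those without, at 54.5% (6 of 11) against 18.8% in replicate 2 and 36.4% (4 of 11) against 18.5% in replicate 3. This comparison was chosen after the shared summits had been seen, and the part of the arrangement in the count was not tested.

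The gap between the paired starts was 104 to 458 bp at the 13 bound genes and 42 to 442 bp at the 10 unbound ones, so the ranges overlapped. The limit of 100 bp used next was chosen with the gaps known, and no test of the difference was run. None of the 5 spliceosome genes whose neighbour started under 100 bp away had an IDR summit, namely Prp38 (42 bp from shrb), SmE (53 bp from CG34132), Prp3 (85 bp from Mi-2), Sf3b2 (85 bp from CG17219) and Prp40 (85 bp from alpha4GT1). Of the 18 with a gap of 100 to 500 bp, 13 had one (72.2%). Over all genes the shares were 41.3% for gaps under 100 bp and 52.9% for wider ones, so gaps under 100 bp often carried a summit elsewhere. Among the wider ones the share was 37.9% at 100 to 199 bp and 58.8% at 200 to 299 bp, so over all genes it did not rise at 100 bp. The widest unbound gaps were those of Prp6 (442 bp from CSN1b) and U2af38 (441 bp from Stip1). The median gap was 243 bp in the 23 spliceosome genes and 245 bp in all genes with such a neighbour.

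**Figure D4:**
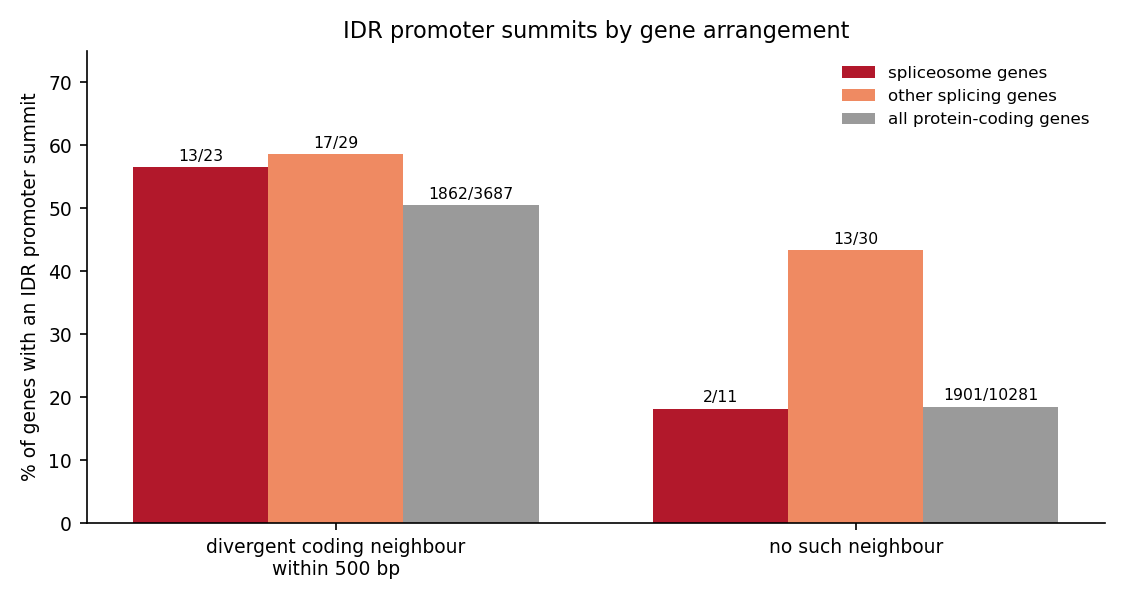
Percentage of genes with an IDR promoter summit among genes with a start of a coding neighbour on the opposite strand within 500 bp upstream (left) and among those without (right), for the spliceosome genes, 59 other splicing genes and all protein-coding genes; numbers above the bars are genes with a summit over genes in the class. Spliceosome genes stand at 56.5% and 18.2%, all genes at 50.5% and 18.5%.

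Bound spliceosome genes had a short median length, though the unbound ones spanned a wider range that included theirs. The median was 1273 bp (range 687 to 4728), against 3200 bp for all bound genes. It was 2972 bp (range 370 to 23371) for the 19 spliceosome genes without an IDR summit. The median over the whole set of 34 was 2122 bp, near the 2164 bp of all protein-coding genes. A single annotated start was present at 29 of the 34 (85.3%), against 73.5% of all genes. By chromosome arm, 5 of 8 genes on 3L, 5 of 9 on 3R, 2 of 8 on 2L, 2 of 6 on 2R and 1 of 3 on X had an IDR promoter summit, while the share over all genes lay between 25.5% and 28.2% on these arms.

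The promoters of spliceosome genes held the DRE more often than promoters at large, but whether the genes with a DRE counted as bound depended on the list. In the 200 bp before the outermost TSS, 8 of the 34 held TATCGATA (23.5%), against 7.37% of all promoters, and 24 held CGATA (70.6%, all promoters 38.4%), which is contained in the DRE. Of the 8 genes with a DRE, SF2 and snRNP-U1-C had an IDR promoter summit and Prp39, Prp6, Sf3b2, Sf3b3, SmE and U2af38 had none. The share was 2 of 8, against 41.6% of all genes with a DRE in that window. In the joint list it was 7 of 8 (all genes with a DRE 75.9%), in the strongest peaks of replicate 2 it was 5 of 8 (44.7%) and in those of replicate 3 it was 4 of 8 (40.1%). Of the 26 without a DRE, 13 had an IDR promoter summit (all genes 25.8%). At SF2 and snRNP-U1-C the DRE lay between the summit and the start. One DRE of SF2 lay 76 bp from the summit, inside the printed sequence, and a second 129 bp from it, outside. That of snRNP-U1-C lay 87 bp from the summit. These shares were compared after the motifs had been seen. Motif 1 (GGTCACACT), bound by M1BP, lay in the promoters of Prp3, Sf3b1 and Sf3b6 (8.82%, all promoters 2.79%).

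Around the summits themselves, 10 of 15 held at least 1 of 5 known motifs within 100 bp (66.7%), as did 2210 of all 3068 IDR promoter summits. Within 100 bp of the 15 summits the TATA word TATAAA lay at 7 (46.7%, all IDR promoter summits 38.3%), CGATA at 7 (46.7%, 36.7%), the DRE at 2 (13.3%, 6.78%), and Motif 1 and the GAGA word GAGAG at 0 (3.32% and 19.8% of all IDR promoter summits). A set of 10 words of 8 bases was taken from the 8155 IDR summits away from spliceosome promoters, as those with the largest excess of summits over windows 500 bp away, on either strand. The first was AAAAATAT and all 10 consisted of A and T, several of them overlapping shifts of each other. At least 1 of the 10 lay at 9 of the 15 spliceosome summits (60.0%), near the 55.3% of all IDR promoter summits. In the windows to the left and right of the other summits the shares were 24.8% and 25.2%. The words were chosen for being rarer in these windows, so their lower shares are built in. The words most frequent at the spliceosome summits were AAAATATT and TTAAAAAA, at 4 of 15 each (26.7%), against 12.1% and 11.9% of the other IDR summits. U2af50, Sf3b6, LSm1 and SmD2 held AAAATATT, while Sf3b1, Sf3b6, SmB and SmD2 held TTAAAAAA.

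Of 59 splicing genes with other symbols, 50.8% had an IDR promoter summit, beside 44.1% of the 34 and 26.9% of all protein-coding genes. The shares of the lists below, each of few genes, are to be set beside the same 26.9%. The symbol rule leaves out many core proteins and the regulators of splicing, so these were listed by function. The 30 bound ones had a median signal of 267, against 336 over all bound genes. Among core spliceosome proteins 8 of 18 had one (44.4%), led by Phf5a, another SF3b subunit (1485, above all of the 34), the splicing factor gene barc (774) and the SF3a subunit gene noi (362), and Cdc5 had none. Among SR and related proteins 5 of 10 had one, among them SC35 (640), and RnpS1 had none. Among hnRNP proteins, which coat nascent transcripts, 7 of 10 had one (70.0%), led by sm (1377), Syp (891) and glo (314), and Hrb27C had none. Of 5 exon junction and export genes 3 had one, Acn (712), tsu (255) and Hel25E (168), and btz had none. Of 10 regulators of alternative splicing 5 had one, led by mbl (954), fl(2)d (706) and the sex determination gene Sxl (624), and bru1 had none. Of 6 genes of snRNP assembly 2 had one, Smn (304) and icln (172), and csul had none. By arrangement, 17 of 29 with a neighbour on the opposite strand (58.6%) and 13 of 30 without (43.3%) had one, where the shares over all genes were 50.5% and 18.5%.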

How the data were processed

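The authors deposited 4 peak lists on dm6, 1 per replicate, 1 called on both replicates and 1 IDR thresholded list made from the other 3, each against a control alignment, per the headers of the deposited notes. Which aligner, caller, settings and IDR threshold were used is not given in the sources used here. The lists hold no reads, so depth is unknown, and the control is not analysed here. No scale is stated for the deposited signal. The deposited −log10 q-value reached its ceiling at all IDR peaks and was not used for ranking. Coordinates are 1-based (summit offset added to the peak start).

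Gene starts came from Ensembl release 115 and sequence from the RefSeq copy of the same assembly. No peak ended past a chromosome arm, and all 34 genes had identical coordinates in RefSeq. Summits within 500 bp of any annotated TSS were assigned to every such gene, and the strongest was reported. Matching of summits to genes was tested on simulated data. Both replicates come from 1 transgenic line.

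The genes and lists were chosen with earlier results of these data known. Every one of the 34 genes is named. Of each other list the 3 strongest bound genes and the alphabetically earliest unbound one are named, apart from SR genes that are not reported here. The symbols l(3)72Ab, Bcas2, Aar2, CG6227, bl and eIF4A3 had no match. Windows of 200 and 1000 bp, the nearest gene, the outermost TSS, the stronger 4085 IDR peaks, each replicate alone, other matching distances and a motif window of 50 bp were alternatives. Python 3.11.15, numpy 2.4.6, pandas 2.3.3 and matplotlib 3.10.9 were used.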

Additional observations from a re-analysis of the deposited data

How the results depend on the processing

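Of 36 alternative settings, those not listed here left the value within 1.5 times, or for the summit position within the spread between replicates (SD 44.2 bp). That SD was taken over the median positions of the 2 replicates, which are themselves among these settings. It thus cannot show that the position is stable. The count of spliceosome genes with an IDR promoter summit was 15, and 9 with each summit given to the nearest gene and 9 among the stronger 4085 IDR peaks, where the count of other splicing genes was 14 in place of 30. With 1 replicate left out and the strongest peaks of the other used, the count of spliceosome genes was 17 to 18, and the median summit position lay between −170 and −107 bp, in place of −124 bp. Of the 15 summits, 9 were matched among the strongest peaks of both replicates, in place of 14. With 50 bp in place of 100 bp to either side, 6 summits held 1 of the 5 known motifs, in place of 10. Of the 8 spliceosome genes with a promoter DRE, 2 had an IDR promoter summit, 7 had one in the joint list and 4 to 5 among the strongest peaks of a single replicate, which were alternatives chosen after seeing the data. The cause of these differences was not tested, apart from the smaller number of peaks or the narrower window that the setting itself brings. No paired analysis was possible because there is 1 group. Shares over 34 genes move by several percent with 1 gene.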
